A study of Mus musculus with 16 samples.

Results

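The genes described here are 40 mouse genes of mitosis and chromosome segregation, chosen by their known function and looked up by gene name on the arrays. All 40 were among the 17662 genes tested, and all were well above background on each of the 16 arrays, with no saturated spot. They fall into 7 groups by role: entry into mitosis (7 genes), spindle assembly (5), the spindle checkpoint and anaphase (6), the centromere and kinetochore (6), the chromosomal passenger complex (4), the central spindle and cytokinesis (6), and condensin with topoisomerase II (6). In the scanner files 7 of them carry an older name, among them Cdk1 (as Cdc2a), Ndc80 (Kntc2), Nuf2 (Cdca1) and Ncaph (Brrn1). The RNA came from the mouse embryonic stem cell line E14, into which a lentiviral vector had brought a lasting short hairpin RNA. The hairpin was a control (sh-Control) or targeted Sirt1 (sh-SIRT1), which encodes a deacetylase that uses NAD. All cells grew in the same serum medium with leukocyte inhibitory factor, as the labels spell the cytokine, and received either ethanol, the vehicle, or retinoic acid (RA) at 20 nM over 2 days. The labels give 3 arrays of sh-Control in vehicle, 3 of sh-SIRT1 in vehicle, 4 of sh-Control under RA and 6 of sh-SIRT1 under RA. The series title names the question, whether SIRT1 deficiency strengthens the differentiation that RA induces.

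A dividing cell enters mitosis when CDK1 bound to a cyclin is switched on, builds a spindle of microtubules, attaches the spindle to each chromosome at the kinetochore, and holds anaphase back with the spindle checkpoint until all chromosomes are attached. The anaphase-promoting complex then lets the sister chromatids part, and a contractile ring at the central spindle divides the cytoplasm. Most of these genes are transcribed in waves late in the cell cycle, so that their RNA in a culture follows how many cells are in those phases as well as how much each cell makes. Embryonic stem cells divide fast with a short gap before DNA replication, and their cycle lengthens as they differentiate. In bulk RNA fewer cells in a phase and less RNA per cell cannot be told apart.

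Late cell cycle promoters often hold a cell cycle genes homology region (CHR), the element through which the MuvB complexes act, and CCAAT boxes, the element of the factor NF-Y. The 250 bases before the start were searched on both strands for TTTGAA or TTCGAA as the CHR and for CCAAT, in the RefSeq promoter table of build GRCm38.p6, which gave 35 windows for 33 of the 40 genes. A CHR match lay in 14 of the 35 windows (40%), beside 17.1% of all 32851 windows in the table. A CCAAT match lay in 27 (77.1%), beside 33.8% of all windows, and both lay in 13 (37.1%), beside 6.02%. The last 120 bases before the start are shown for 6 genes, 5′ to 3′ on the strand of the gene, with the matches in capitals. Kif11, Ccnb1, Cenpf and Nusap1 are shown because they had the largest RA differences in sh-SIRT1 cells among the 40 genes, and Cdk1 and Cdc20 because they carry both elements near the start and had smaller differences there.
Kif11 (chr19:37376262-37376381, plus strand): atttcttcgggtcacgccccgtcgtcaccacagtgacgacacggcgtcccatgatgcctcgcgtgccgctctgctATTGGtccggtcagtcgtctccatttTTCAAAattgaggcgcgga
Ccnb1 (chr13:100786487-100786606, minus strand): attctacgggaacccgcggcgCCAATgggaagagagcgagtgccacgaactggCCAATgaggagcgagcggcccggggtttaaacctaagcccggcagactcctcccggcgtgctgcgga
Cenpf (chr1:189688087-189688206, minus strand): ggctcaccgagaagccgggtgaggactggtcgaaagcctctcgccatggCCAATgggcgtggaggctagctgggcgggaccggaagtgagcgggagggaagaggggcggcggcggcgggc
Nusap1 (chr2:119618178-119618297, plus strand): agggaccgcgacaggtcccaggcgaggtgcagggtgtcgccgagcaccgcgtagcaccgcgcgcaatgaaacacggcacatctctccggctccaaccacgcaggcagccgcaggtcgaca
Cdk1 (chr10:69352913-69353032, minus strand): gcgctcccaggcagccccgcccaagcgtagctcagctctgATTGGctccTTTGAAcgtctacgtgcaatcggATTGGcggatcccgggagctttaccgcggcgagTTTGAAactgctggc
Cdc20 (chr4:118437344-118437463, minus strand): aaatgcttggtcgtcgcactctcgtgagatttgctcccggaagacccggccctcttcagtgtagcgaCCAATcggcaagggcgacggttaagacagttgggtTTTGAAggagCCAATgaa
The CHR match begins 19 bases before the start of Kif11, 18 before that of Cdc20, and 71 and 15 before that of Cdk1. Ccnb1 and Cenpf have CCAAT matches and no CHR match in their windows, and Nusap1 has no match to either. The 13 genes with a CHR match had a median RA effect of -0.26 log2 units in sh-SIRT1 cells and the 20 without had -0.41. The gap was smaller for RA in sh-Control cells, at -0.12 with and -0.17 without. Between the lines under RA the medians were -0.25 and -0.28. These are descriptions with no test.

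Levels are given as log2 of the processed intensity minus the array's 75th percentile, so that 0 is the 75th percentile and a step of 1 a doubling. Such levels do not compare different genes, since each probe has its own brightness. Sirt1 was checked first. In vehicle its mean level was 3.65 with the control hairpin against 1.85 with the Sirt1 hairpin, and under RA 3.36 against 1.18. It fell by 1.81 ± 0.15 (SE) in vehicle (limma adjusted p = 3.99e-05) and by 2.18 ± 0.12 under RA (limma adjusted p = 2.51e-07), as the labels say. Between 60.3 and 68.6% of probes per array lay well above background, and the 75th percentile lay at an intensity between 686 and 1156. All 8 pluripotent stem cell markers on a list of such genes, Pou5f1, Sox2 and Nanog among them, were above background in each group.

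Several arrays stand closer together than others of their group. Over all genes the SD of the log2 difference was 0.21 to 0.36 for 10 of the 27 pairs of arrays within groups and 0.52 to 0.74 for the other 17. The close sets were vehicle arrays 2 and 3 in each line, sh-Control RA arrays 3 and 4, sh-SIRT1 RA arrays 1 and 2, and sh-SIRT1 RA arrays 3 to 6. The design text speaks of duplicates but the labels do not say which arrays they are, so p-values measure the spread between arrays, which may be partly technical. The Y-linked gene Ddx3y lay at 0.22 on sh-Control RA array 1 and at -6.92, -8.01 and -8.12 on arrays 2, 3 and 4, against 0.32 to 1.60 in the vehicle arrays of the same line. The primitive endoderm markers also differed within that group, with a median level relative to their own means of 3.57 on array 1 and 1.08, -0.13 and -0.08 on arrays 2, 3 and 4, and Gata4 above background on all 4. In each result on sh-Control RA cells, the state of the culture behind array 2, 3 or 4 and the treatment cannot be told apart.

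The median over the 40 genes, each taken relative to its own mean over all arrays, was 0.23, 0.17 and 0.21 on the sh-Control vehicle arrays and 0.22, 0.18 and 0.15 on the sh-SIRT1 vehicle arrays. It was -0.13, -0.08, 0.11 and 0.11 on the sh-Control RA arrays and -0.06, -0.14, -0.26, -0.29, -0.25 and -0.26 on the sh-SIRT1 RA arrays. The vehicle arrays were thus the highest and did not overlap with either RA group, while the RA groups overlapped, since sh-Control arrays 1 and 2 lay within the sh-SIRT1 range.

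**Figure D1:**
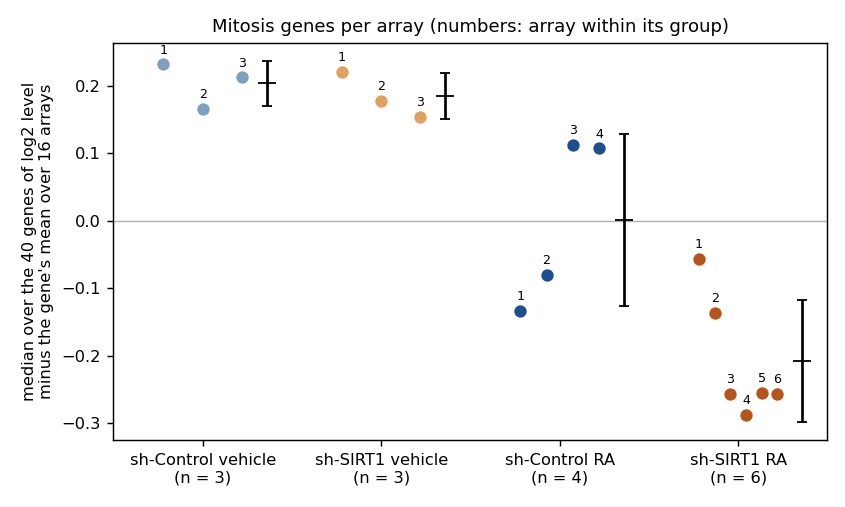
Median over the 40 mitosis genes of the log2 level minus each gene's mean over the 16 arrays (vertical axis), for each array of the 4 groups, numbered as in the labels; black marks give the group mean and SD. The vehicle arrays lie between 0.15 and 0.23, the sh-Control RA arrays between -0.13 and 0.11, and the sh-SIRT1 RA arrays between -0.29 and -0.06.

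In vehicle the mitosis genes did not differ between the lines at the threshold: 0 of 40 passed in either direction (limma, adjusted p under 0.05, adjusted over all genes tested), and 2 passed higher and 0 lower at an unadjusted p under 0.05. Of all genes tested, 4.35% passed as higher and 4.27% as lower in sh-SIRT1 cells. The 40 differences ran from -0.24 to 0.34 with a median of 0.00, with 20 below and 20 above 0. The nearest to the threshold was Ccna2, cyclin A2, at 4.15, 4.04 and 4.00 on the sh-Control arrays and 4.40, 4.26 and 4.25 on the sh-SIRT1 arrays. These values do not overlap. Nor did those of many other members in both directions, among them Bub1b, lower in sh-SIRT1 cells, and Ndc80, higher there. The share of all genes without overlap in vehicle was not counted, so this does not set the mitosis genes apart. The Ccna2 difference was 0.24 ± 0.08 (limma adjusted p = 0.0642). With the array number as a replicate block within treatment its adjusted p was 0.0488 (limma), and without sh-Control vehicle array 1 the difference was 0.29 with a limma adjusted p of 0.0362. These fits called 1573 and 960 of all 17662 genes higher, where the fit of all arrays without a block called 768. The other leading genes were at 0.13 ± 0.13 for Cdk1, -0.06 ± 0.11 for Ccnb1, -0.14 ± 0.09 for Plk1 and 0.02 ± 0.11 for Kif11.

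Part of the mitosis genes were lower under RA than in vehicle in each line. In sh-Control cells 13 of the 40 fell and 2 rose, beside 27.0% of all genes tested that fell and 19.9% that rose. The count of falls there is near the share of all genes and does not set the mitosis genes apart. In sh-SIRT1 cells 29 fell and 1 rose, beside 34.9% of all genes that fell and 23.5% that rose. All 13 genes that fell in sh-Control cells also fell in sh-SIRT1 cells, which is 100% of the first list and 44.8% of the second. These comparisons share no arrays, but the fit uses the same spread of each gene for both, so the lists are not independent. The overlap over all genes was not counted. The groups did not overlap, with RA the lower, for 16 genes in sh-Control cells and 29 in sh-SIRT1 cells, beside 28.3% and 34.7% of all genes.

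The median of this fall was close to that of genes within the middle of the mitosis genes' range of brightness. In sh-Control cells the 40 genes had a median of -0.20, beside -0.13 for all genes, and in sh-SIRT1 cells -0.38, beside -0.12. The 3787 genes with a mean level between 1.66 and 4.66, the quartiles of the mitosis genes, had -0.22 and -0.33. Of them 39.6% and 54.7% fell, beside 13 and 29 of the 40 mitosis genes. Mitosis genes brighter or dimmer than these quartiles have no genes of their own level in this set. Under quantile normalization, which gives all arrays the same distribution of values, the medians of the mitosis genes were 0.01 and -0.07, with 2 genes lower and 4 higher in sh-Control cells, beside 23.1% and 20.7% of all genes, and 14 lower and 3 higher in sh-SIRT1 cells, beside 30.1% and 24.0%. With arrays centred on the median of the genes tested, 21 fell and 0 rose in sh-Control cells, where 33.9% of all genes fell, 32 fell and 0 rose in sh-SIRT1 cells, where 41.2% fell, and the medians were -0.29 and -0.49. With close arrays averaged, 2 genes fell in sh-Control cells (Plk1 and Cenpf) and 6 in sh-SIRT1 cells (Ccna2, Ccnb1, Kif11, Nusap1, Cenpf and Birc5), by limma adjusted p, beside 10.6% and 12.9% of all genes. The falls that held in each of these settings in sh-SIRT1 cells were those of Ccna2, Ccnb1, Kif11, Nusap1 and Cenpf, which passed in 22 of 22 alternatives. Without any single array, 9 of the 15 calls in sh-Control cells and 24 of the 30 in sh-SIRT1 cells held. Those lost were Cdc25c, Nusap1, Bub1b, Cenpe, Prc1 and Ect2 in the first, and Cdc25c, Aurka, Tpx2, Ttk, Cdc20 and Kif23 in the second.

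**Figure D2:**
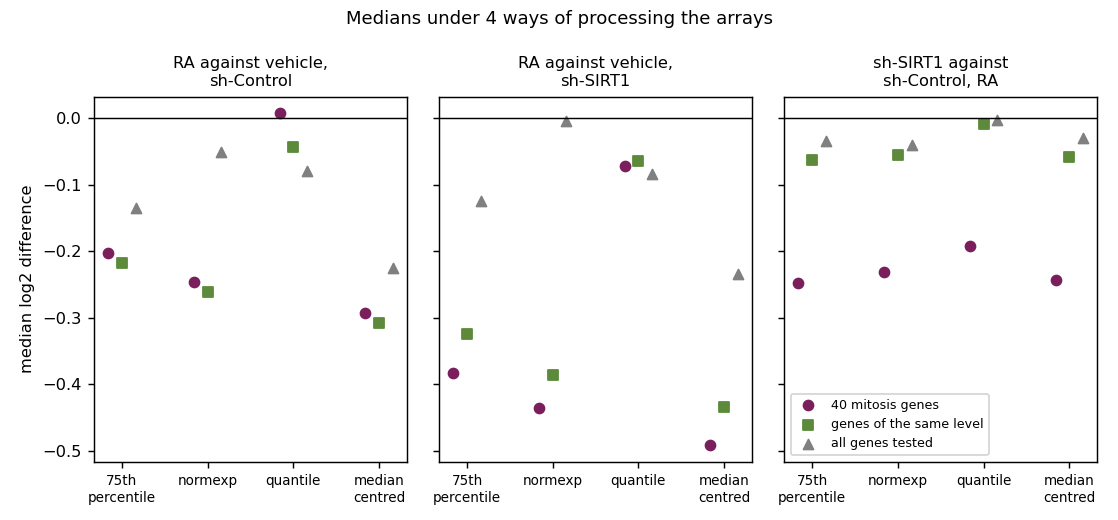
Median log2 difference (vertical axis) of the 40 mitosis genes (circles), of the 3787 genes of the same level (squares) and of all genes tested (triangles), for RA against vehicle in each line and for sh-SIRT1 against sh-Control under RA, with 4 ways of processing the arrays (horizontal axis). In both RA comparisons the circles and squares move together, from -0.38 and -0.33 to -0.07 and -0.06 in sh-SIRT1 cells under quantile normalization, while between the lines under RA the circles lie between -0.25 and -0.19 and the squares between -0.06 and -0.01.

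Under RA the mitosis genes were lower in sh-SIRT1 than in sh-Control cells for 15 of the 40 and higher for 0, beside 11.6% of all genes tested that were lower and 8.74% that were higher. The 15 were Nusap1, Smc2, Mad2l1, Kif11, Cenpf, Ttk, Ccnb1, Anln, Aurka, Kif2c, Tpx2, Cenpe, Cdc25c, Prc1 and Cdca8, with differences from -0.54 to -0.24. In vehicle Kif2c, Cdc25c, Aurka, Tpx2 and Cdca8 were already at -0.23, -0.23, -0.22, -0.19 and -0.17 without passing. The rest of the 15 lay between -0.10 and 0.16 there. Under RA the groups did not overlap, with sh-SIRT1 the lower, for 10 of the 40, beside 8.91% of all genes. The median of the 40 was -0.25, where the genes of the same level had -0.06, with 15.2% of them lower, and all genes had -0.03. Under quantile normalization 12 genes were lower, beside 10.4% of all genes, 0 were higher and the median was -0.19. With median centring 14 were lower, beside 10.7% of all genes, with a median of -0.24.

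This difference between the lines rested on some of the RA arrays. Taking arrays of the same number, the median difference of the 40 genes was 0.02 for number 1, -0.08 for number 2, -0.41 for number 3 and -0.39 for number 4, with 19, 29, 38 and 39 of the 40 genes lower in sh-SIRT1 cells. Of all genes 49.8, 51.5, 55.6 and 60.2% were lower. Of the genes of the same level 49.4, 54.4, 64.2 and 62.4% were lower, with medians of 0.00, -0.03, -0.11 and -0.09. With RA arrays 1 and 2 only, 0 genes passed in either direction (limma adjusted p; 1 lower and 1 higher at an unadjusted p under 0.05) and the median was -0.03, in a fit with fewer arrays that called 0.436% of all genes lower. With RA arrays 3 and above 31 were lower and the median was -0.35, in a fit that called 19.7% of all genes lower. Against sh-Control RA array 1 alone the median was -0.13. With close arrays averaged, which leaves 3 units of sh-Control and 2 of sh-SIRT1 cells under RA, the median was -0.19, and the fit passed 1 of all 17662 genes, so that its count over the mitosis genes says nothing about them. Without sh-Control RA array 3 or array 4 the count was 7, without sh-SIRT1 RA array 1 it was 23, and with a normexp background correction it was 2 (Kif11 and Nusap1). In the same order these fits called 1299, 1375, 2109 and 626 of all 17662 genes lower. Without any single array, 7 of the 15 calls held, those of Nusap1, Kif11, Cenpf, Ccnb1, Mad2l1, Ttk and Smc2. On the slides that held both lines under RA the medians were -0.41, -0.32 and -0.08.

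Same-numbered arrays of the lines deviated together within a treatment, with correlations of their deviations over genes of 0.37 to 0.54 in all 7 pairs. Arrays of different numbers were not compared across the lines, so these values do not show that the number marks a pair. With the number as a replicate block within treatment, which rests on the 4 numbers that both lines have under RA, 10 mitosis genes were lower in sh-SIRT1 cells under RA, beside 16.4% of all genes in that fit. Of these, 8 were among the 15, and Birc5 and Ndc80 were added. The 7 calls lost with the block were those of Ccnb1 (limma adjusted p = 0.0602), Aurka (0.0505), Anln (0.0604), Kif2c (0.0818), Tpx2 (0.0724), Cdc25c (0.182) and Prc1 (0.137).

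**Figure D3:**
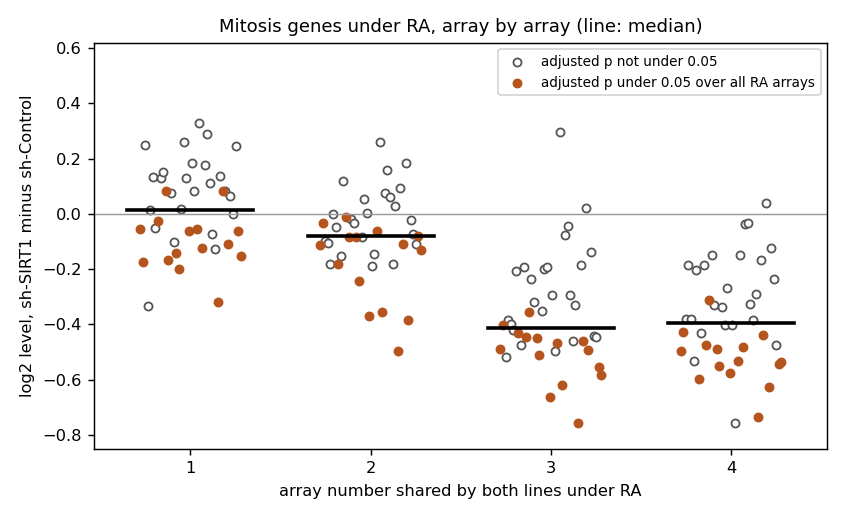
Log2 level in sh-SIRT1 minus sh-Control cells under RA (vertical axis) for each of the 40 mitosis genes, between arrays of the same number in the labels (horizontal axis); filled points are the 15 genes that passed over all RA arrays and black lines the medians. The medians are 0.02 and -0.08 for numbers 1 and 2 and -0.41 and -0.39 for numbers 3 and 4.

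The difference of the RA effects between the lines passed for 0 of the 40 genes in either direction (limma, adjusted p under 0.05), where 1.83% of all genes passed as more negative in sh-SIRT1 cells and 1.72% as less negative. At an unadjusted p under 0.05, 12 of the 40 were more and 0 less negative, beside 11.0% and 9.03% of all genes. The point values were more negative in sh-SIRT1 cells for 39 of the 40, Plk1 being the exception, with a median of -0.22, where the genes of the same level had -0.11. Nearest to the threshold were Mad2l1 at -0.52 ± 0.14 (limma adjusted p = 0.0505) and Ccna2 at -0.37 ± 0.10 (limma adjusted p = 0.0525). With the replicate block within treatment, Ndc80 (-0.52, limma adjusted p = 0.0442) and Ccna2 (-0.37, limma adjusted p = 0.04997) passed. Without sh-Control RA array 1 the count was 8, without sh-Control vehicle array 1 or sh-SIRT1 RA array 2 it was 2, without sh-SIRT1 RA array 1 it was 1, and with RA arrays 3 and above only it was 22.

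Of the genes of entry into mitosis, 3 of 7 fell and 1 rose under RA in sh-Control cells, 5 fell and 1 rose in sh-SIRT1 cells, and 3 were lower in sh-SIRT1 than sh-Control cells under RA. For this and the other role groups, the shares of all genes were 27.0% lower and 19.9% higher under RA in sh-Control cells. They were 34.9% and 23.5% in sh-SIRT1 cells, and 11.6% and 8.74% between the lines under RA. Ccnb1, cyclin B1, which activates CDK1, lay at 4.38, 4.15 and 4.18 in sh-Control vehicle, 4.21, 4.16 and 4.16 in sh-SIRT1 vehicle, 3.64, 3.75, 3.95 and 3.95 in sh-Control RA, and 3.34 to 3.61 with a median of 3.47 in sh-SIRT1 RA (probe A_52_P202770, chr13:97885282-97885341, build mm7). Its RA groups were below the vehicle groups in both lines without overlap, and the lines did not overlap under RA either. It fell by 0.41 ± 0.10 under RA in sh-Control cells (limma adjusted p = 0.00422) and by 0.71 ± 0.09 in sh-SIRT1 cells (limma adjusted p = 2.08e-05), and the lines differed by -0.35 ± 0.09 under RA (limma adjusted p = 0.0105; 0.0602 with the replicate block). Its 2 other probes gave RA differences of -0.47 and -0.57 in sh-Control and of -0.73 and -0.74 in sh-SIRT1 cells, but -0.05 and -0.07 between the lines under RA. Plk1, the polo-like kinase that acts from centrosome maturation to cytokinesis, lay at 5.95, 5.78 and 5.82 in sh-Control vehicle, 5.80, 5.68 and 5.66 in sh-SIRT1 vehicle, 5.26, 5.28, 5.48 and 5.47 in sh-Control RA, and 5.29 to 5.40 with a median of 5.30 in sh-SIRT1 RA. It was lower under RA than in vehicle in each line, and the RA groups overlapped. It fell by 0.48 ± 0.08 in sh-Control cells (limma adjusted p = 2.76e-04) and by 0.39 ± 0.07 in sh-SIRT1 cells (limma adjusted p = 4.91e-04), with a log2 difference of -0.05 ± 0.07 between the lines under RA. Under quantile normalization the value in sh-SIRT1 cells was 0.0363.

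Ccna2, whose cyclin works in DNA replication and in entry into mitosis, fell by 0.30 ± 0.07 and by 0.67 ± 0.07. Ccnb2, the second B-type cyclin, fell in sh-SIRT1 cells by 0.46 ± 0.10 and was at -0.21 ± 0.11 in sh-Control cells. Aurka, the Aurora kinase of the spindle poles, fell in sh-SIRT1 cells by 0.33 ± 0.09, a value of 0.08 under quantile normalization, and was at -0.31 ± 0.09 between the lines under RA. Cdk1 itself did not pass in any comparison: it lay at 3.88, 3.52 and 3.39 in sh-Control vehicle and at 3.34, 3.51, 3.79 and 3.73 in sh-Control RA, which overlap, and the RA differences were 0.00 ± 0.12 and -0.21 ± 0.11. Cdc25c, the phosphatase that removes the inhibitory phosphates of CDK1, went the other way. It lay at -0.06, 0.04 and -0.01 in sh-Control vehicle, -0.24, -0.26 and -0.22 in sh-SIRT1 vehicle, 0.12, 0.16, 0.49 and 0.51 in sh-Control RA, and -0.10 to 0.20 with a median of 0.04 in sh-SIRT1 RA. It rose by 0.33 ± 0.11 and 0.28 ± 0.10 under RA (limma adjusted p = 0.0225 and 0.0264) and was at -0.28 ± 0.09 between the lines under RA (limma adjusted p = 0.0457). Its other probe gave 0.31 and 0.05 for RA in the 2 lines and -0.36 between them. With the replicate block the last call was lost. Its call in sh-Control cells was lost on leaving out vehicle array 1 or 3 or RA array 3 or 4, and that in sh-SIRT1 cells on leaving out any of the 3 vehicle arrays.

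**Figure D4:**
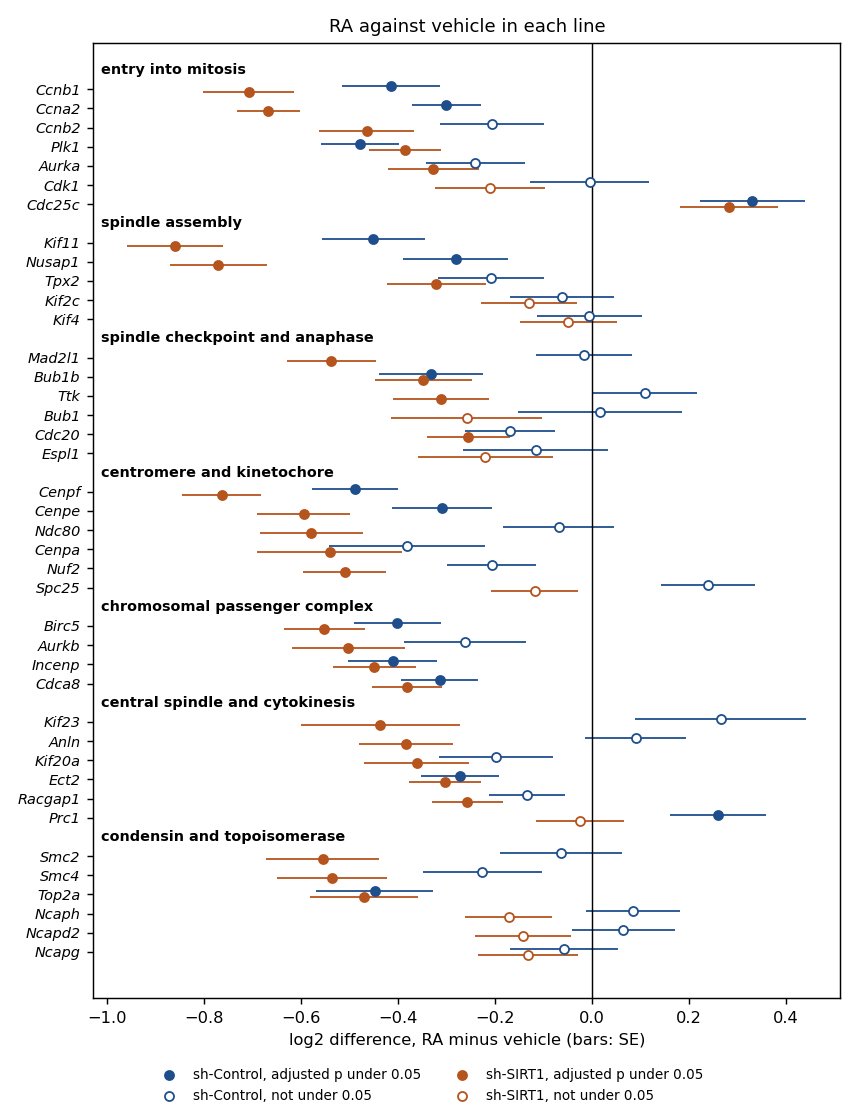
Log2 difference between RA and vehicle with its SE (horizontal axis) for each of the 40 genes by role, in sh-Control (blue) and sh-SIRT1 cells (orange); filled points passed an adjusted p of 0.05. Kif11, Nusap1 and Cenpf lie farthest to the left in sh-SIRT1 cells at -0.86, -0.77 and -0.76, and Cdc25c lies to the right of 0 in both lines.

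Of the 5 spindle assembly genes, 2 fell under RA in the sh-Control line and 3 in the sh-SIRT1 line, and 4 were lower in sh-SIRT1 than sh-Control cells under RA. Kif11, the kinesin that pushes the spindle poles apart, lay at 0.56, 0.40 and 0.33 in sh-Control vehicle, 0.48, 0.40 and 0.46 in sh-SIRT1 vehicle, -0.31, -0.09, 0.17 and 0.13 in sh-Control RA, and -0.49 to -0.33 with a median of -0.42 in sh-SIRT1 RA (probe A_51_P481398, chr19:37121948-37122007, build mm7). The vehicle arrays of the lines overlapped, both RA groups lay below them, and every sh-SIRT1 RA array lay below every sh-Control RA array. It fell by 0.45 ± 0.11 in sh-Control cells (limma adjusted p = 0.00329) and by 0.86 ± 0.10 in sh-SIRT1 cells, which is 1.82-fold (limma adjusted p = 5.54e-06), and the lines differed by -0.39 ± 0.09 under RA (limma adjusted p = 0.00747). Under quantile normalization the RA differences were -0.44 and -0.86. Its 2 other probes gave -0.03 and -0.95 for RA in sh-Control cells, -0.76 and -1.21 in sh-SIRT1 cells, and -0.74 and -0.26 between the lines under RA.

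Nusap1, which bundles spindle microtubules around chromosomes, lay at 2.60, 2.69 and 2.67 in sh-Control vehicle, 2.59, 2.62 and 2.60 in sh-SIRT1 vehicle, 2.13, 2.22, 2.62 and 2.52 in sh-Control RA, and 1.72 to 1.95 with a median of 1.84 in sh-SIRT1 RA. Its sh-Control RA arrays overlapped with vehicle and its sh-SIRT1 RA arrays lay below all others. The log2 difference between the lines under RA, -0.54 ± 0.09, had the largest size among the 40 genes (limma adjusted p = 0.00124). RA lowered it by 0.77 ± 0.10 in sh-SIRT1 cells (limma adjusted p = 1.68e-05). In sh-Control cells it was at -0.28 ± 0.11 (limma adjusted p = 0.0445), a call lost on leaving out any vehicle array or RA array 1 or 2, and its other probe gave 0.32 there. That other probe gave -0.55 in sh-SIRT1 cells and -0.42 between the lines under RA, the same sign as the chosen probe.

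Tpx2, the targeting factor of Aurora A, fell in sh-SIRT1 cells by 0.32 ± 0.10 and was at -0.30 ± 0.09 between the lines under RA. Kif2c, a kinesin that takes microtubules apart, passed between the lines under RA at -0.30 ± 0.09 and not for RA in either line (-0.06 ± 0.11 and -0.13 ± 0.10). Its difference between the lines in vehicle was -0.23, which did not pass. Kif4, a chromosome-bound kinesin, passed in no comparison, with differences between -0.05 and 0.21.

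Of the 6 genes of the spindle checkpoint and anaphase, 1 fell under RA in the sh-Control line and 4 in the sh-SIRT1 line, and 2 were lower in sh-SIRT1 than sh-Control cells under RA. Mad2l1, the checkpoint protein that holds CDC20 inactive, lay at 2.46, 2.38 and 2.36 in sh-Control vehicle, 2.57, 2.47 and 2.47 in sh-SIRT1 vehicle, 2.33, 2.48, 2.40 and 2.33 in sh-Control RA, and 1.78 to 2.20 with a median of 1.92 in sh-SIRT1 RA (probe A_51_P230873, chr6:66520777-66520836, build mm7). The sh-SIRT1 RA arrays lay below all other arrays, and the sh-Control RA arrays overlapped with both vehicle groups. The RA difference was -0.02 ± 0.10 in sh-Control cells and -0.54 ± 0.09 in sh-SIRT1 cells (limma adjusted p = 1.97e-04), and the lines differed by -0.42 ± 0.08 under RA (limma adjusted p = 0.00351). Bub1b, a kinase-like checkpoint protein, lay at 3.33, 3.41 and 3.40 in sh-Control vehicle and 2.87, 2.89, 3.19 and 3.24 in sh-Control RA. These did not overlap, and it fell by 0.33 ± 0.11 (limma adjusted p = 0.0209), a call lost without vehicle array 2 or 3 or RA array 1 or 2. In sh-SIRT1 cells it fell by 0.35 ± 0.10.

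Ttk, the kinase that starts checkpoint signalling, fell in sh-SIRT1 cells by 0.31 ± 0.10, was at 0.11 ± 0.11 in sh-Control cells and at -0.36 ± 0.09 between the lines under RA. Cdc20, the activator of the anaphase-promoting complex that the checkpoint restrains, fell in sh-SIRT1 cells by 0.26 ± 0.09, a value of 0.14 under quantile normalization, and was at -0.17 ± 0.09 in sh-Control cells. Bub1, the checkpoint kinase, and Espl1, the separase that cuts cohesin, passed in no comparison. Their RA differences were -0.26 ± 0.16 and -0.22 ± 0.14 in sh-SIRT1 cells.

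Of the 6 centromere and kinetochore genes, 2 fell under RA in the sh-Control line and 5 in the sh-SIRT1 line, and 2 were lower in sh-SIRT1 than sh-Control cells under RA. Cenpf, a large kinetochore and nuclear matrix protein that peaks before mitosis, lay at 4.02, 4.03 and 4.09 in sh-Control vehicle, 3.85, 4.01 and 3.96 in sh-SIRT1 vehicle, 3.42, 3.39, 3.70 and 3.72 in sh-Control RA, and 3.15 to 3.23 with a median of 3.18 in sh-SIRT1 RA. The RA groups lay below vehicle and apart from each other. It fell by 0.49 ± 0.09 in sh-Control cells (limma adjusted p = 5.16e-04), a call kept in 21 of 21 alternatives, and by 0.76 ± 0.08 in sh-SIRT1 cells (limma adjusted p = 3.20e-06). Between the lines under RA the difference was -0.38 ± 0.07 (limma adjusted p = 0.00312).

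Cenpe, the kinetochore kinesin that aligns chromosomes, fell by 0.31 ± 0.10 under RA with the control hairpin and by 0.59 ± 0.10 with the Sirt1 hairpin, and the first of these was 0.0123 under quantile normalization. Between the lines under RA it was at -0.29 ± 0.09 (limma adjusted p = 0.0318). Its 2 other probes gave -0.39 and -0.16, -0.47 and -1.08, and -0.30 and -0.72 in these 3 comparisons. Ndc80 and Nuf2 form the arm of the NDC80 complex that grips microtubules. Ndc80 lay at 1.12, 1.10 and 1.11 in sh-Control vehicle, 1.35, 1.38 and 1.34 in sh-SIRT1 vehicle, 0.77, 0.87, 1.26 and 1.25 in sh-Control RA, and 0.69 to 0.90 with a median of 0.75 in sh-SIRT1 RA. The sh-Control RA arrays spread to both sides of the vehicle arrays and the sh-SIRT1 RA arrays lay below theirs. Ndc80 fell in sh-SIRT1 cells by 0.58 ± 0.11 and Nuf2 by 0.51 ± 0.09, with -0.07 ± 0.11 and -0.21 ± 0.09 in sh-Control cells. Spc25, at the other end of the complex, passed in no comparison, with RA differences of 0.24 ± 0.10 for sh-Control and -0.12 ± 0.09 for sh-SIRT1. Under quantile normalization the former was 0.43 and passed (limma adjusted p = 0.00236). Cenpa, the histone H3 variant that marks centromeres, fell in sh-SIRT1 cells by 0.54 ± 0.15. On the sh-Control RA arrays it lay at 2.04, 1.58, 1.57 and 1.61, with array 1 within the vehicle range of 1.94 to 2.16, and the difference was -0.38 ± 0.16.

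The chromosomal passenger complex corrects wrong attachments and then moves to the central spindle, and 3 of its 4 genes fell under RA in the sh-Control line and 4 in the sh-SIRT1 line. Birc5, survivin, lay at 6.61, 6.40 and 6.44 in sh-Control vehicle, 6.52, 6.37 and 6.34 in sh-SIRT1 vehicle, 6.10, 5.92, 6.23 and 6.08 in sh-Control RA, and 5.77 to 5.96 with a median of 5.85 in sh-SIRT1 RA. The RA groups lay below vehicle and overlapped with each other. It fell by 0.40 ± 0.09 (limma adjusted p = 0.00235) and by 0.55 ± 0.08 (limma adjusted p = 6.38e-05). Incenp, the scaffold of the complex, lay at 6.54, 6.46 and 6.37 in sh-Control vehicle and 5.95, 5.97, 6.10 and 6.17 in sh-Control RA, which did not overlap, and fell by 0.41 ± 0.09 there and by 0.45 ± 0.08 in sh-SIRT1 cells. Cdca8, borealin, lay at 5.73, 5.62, 5.84 and 5.80 in sh-Control RA and at 5.48 to 5.57 with a median of 5.49 in sh-SIRT1 RA. It was the member of the complex that passed between the lines under RA, at -0.24 ± 0.07 (limma adjusted p = 0.0215), and without sh-Control RA array 3 or 4 it did not. It fell by 0.31 ± 0.08 and 0.38 ± 0.07 under RA, the second of which was 0.0062 under quantile normalization. Its 2 other probes gave -0.29 and -0.59 for RA in sh-Control cells, -0.47 and -0.67 in sh-SIRT1 cells, and -0.31 and -0.09 between the lines. Aurkb, the kinase of the complex, fell in sh-SIRT1 cells by 0.50 ± 0.12 and was at -0.26 ± 0.13 in sh-Control cells.

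Of the 6 genes of the central spindle and cytokinesis, 1 fell and 1 rose in sh-Control cells, 5 fell in sh-SIRT1 cells, and 2 were lower in sh-SIRT1 than sh-Control cells under RA. Anln, anillin of the contractile ring, lay at -0.04, 0.02 and -0.04 in sh-Control vehicle, 0.19, 0.16 and 0.06 in sh-SIRT1 vehicle, -0.11, 0.13, 0.12 and 0.15 in sh-Control RA, and -0.41 to 0.02 with a median of -0.27 in sh-SIRT1 RA. The sh-SIRT1 RA arrays lay below their vehicle arrays and overlapped with the sh-Control RA arrays. The RA difference was 0.09 ± 0.10 in sh-Control cells and -0.38 ± 0.10 in sh-SIRT1 cells (limma adjusted p = 0.00358), and the lines differed by -0.32 ± 0.09 under RA (limma adjusted p = 0.0216), a call lost without sh-Control RA array 3 or 4 or with the replicate block. Kif23, the kinesin of centralspindlin, lay at 1.66, 1.64 and 1.71 in sh-SIRT1 vehicle and at 0.80 to 1.65 with a median of 1.16 in sh-SIRT1 RA. Arrays 1 and 2 of the RA group, at 1.65 and 1.59, lay near or within the vehicle range and the other 4 at 1.20 or less. It fell by 0.44 ± 0.16 (limma adjusted p = 0.0335), a call lost on leaving out any vehicle array or any of RA arrays 3 to 6, and was at 0.27 ± 0.18 in sh-Control cells.

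Ect2, the activator of RhoA at the cleavage furrow, lay at 4.00, 3.86 and 3.91 in sh-Control vehicle and 3.60, 3.55, 3.76 and 3.71 in sh-Control RA. These did not overlap, and it fell by 0.27 ± 0.08 (limma adjusted p = 0.0127), not passing without vehicle array 1, and by 0.30 ± 0.07 in sh-SIRT1 cells. Its other probe gave -0.03 and -0.60. Racgap1, the partner of Kif23, and Kif20a, a kinesin of the central spindle, fell in sh-SIRT1 cells by 0.26 ± 0.07 and 0.36 ± 0.11, and the latter was 0.02 under quantile normalization. Prc1, which bundles the microtubules of the central spindle, lay at 4.02, 4.18 and 4.25 in sh-Control vehicle and at 4.31, 4.31, 4.54 and 4.49 in sh-Control RA. It rose there by 0.26 ± 0.10 (limma adjusted p = 0.0424), a call lost without vehicle array 1 or 2 or RA array 3 or 4, was at -0.02 ± 0.09 in sh-SIRT1 cells, and was at -0.26 ± 0.08 between the lines under RA (limma adjusted p = 0.0402; 0.137 with the replicate block). Under quantile normalization it passed as higher in sh-SIRT1 cells too, at 0.32 (limma adjusted p = 0.00807).

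Of the 6 genes of condensin and topoisomerase II, which compact and untangle the chromosomes, 1 fell under RA in the sh-Control line and 3 in the sh-SIRT1 line, and 1 was lower in sh-SIRT1 than sh-Control cells under RA. Smc2, the ATPase shared by both condensins, lay at 2.28, 2.36 and 2.51 in sh-Control vehicle, 2.19, 2.54 and 2.61 in sh-SIRT1 vehicle, 2.04, 2.24, 2.46 and 2.53 in sh-Control RA, and 1.74 to 1.97 with a median of 1.92 in sh-SIRT1 RA. The sh-SIRT1 RA arrays were below all others, and the other 3 groups overlapped. The RA difference was -0.06 ± 0.13 in sh-Control cells and -0.56 ± 0.12 in sh-SIRT1 cells (limma adjusted p = 9.84e-04), and the lines differed by -0.43 ± 0.11 under RA (limma adjusted p = 0.0116). Smc4, its partner ATPase, fell in sh-SIRT1 cells by 0.54 ± 0.11. Top2a, topoisomerase II alpha, lay at 3.12, 3.17 and 3.26 in sh-Control vehicle and 2.62, 2.68, 2.79 and 2.85 in sh-Control RA, which did not overlap, and fell by 0.45 ± 0.12 there (limma adjusted p = 0.00757) and by 0.47 ± 0.11 in sh-SIRT1 cells. Its 2 other probes gave -0.57 and -1.31 with the control hairpin and -0.66 and -1.44 with the Sirt1 hairpin. The condensin I subunits Ncapd2, Ncapg and Ncaph passed in no comparison, with RA differences between -0.06 and 0.08 for sh-Control and between -0.17 and -0.13 for sh-SIRT1. Under quantile normalization Ncapd2 passed as higher under RA in both lines, at 0.32 and 0.21 (limma adjusted p = 0.0112 and 0.0433).

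**Figure D5:**
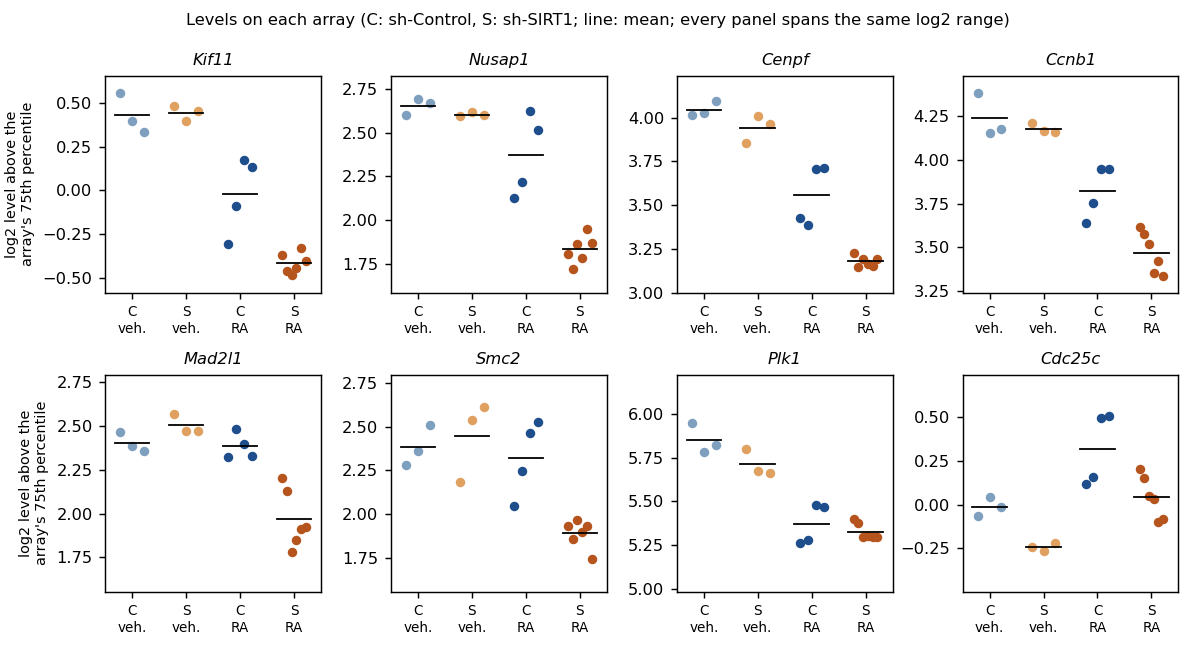
Log2 level above the array's 75th percentile (vertical axis, each panel spanning the same range) of 8 of the genes on each array of the 4 groups; lines are group means. The sh-SIRT1 RA arrays lie below all other arrays for Kif11, Nusap1, Cenpf, Ccnb1, Mad2l1 and Smc2, while for Plk1 they lie within the range of the sh-Control RA arrays, and Cdc25c is higher under RA than in vehicle in sh-Control cells.

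A further list of 95 mitosis genes, 93 of them tested, covers regulators, spindle and centrosome, checkpoint and anaphase-promoting complex, kinetochore, and cohesin with condensin II. Under RA 40 fell and 4 rose in sh-Control cells, beside 27.0% and 19.9% of all genes. In sh-SIRT1 cells 68 fell and 3 rose, beside 34.9% and 23.5%. The medians were -0.22 and -0.42, beside -0.20 and -0.38 for the 40 genes. The counts of this list were not set beside genes of its own level or taken under quantile normalization. Esco2, the cohesin acetyltransferase, and Mybl2, a transcription factor of late cell cycle genes, fell most in sh-Control cells (-1.07 ± 0.12 and -0.96 ± 0.17), and the kinetochore genes Spc24 and Cenpp fell most in sh-SIRT1 cells (-1.20 ± 0.16 and -1.16 ± 0.08). Pttg1, securin, rose in both lines (0.97 ± 0.36 and 0.81 ± 0.33, limma adjusted p = 0.0392 and 0.0492). Spdl1, which brings dynein to kinetochores, rose in sh-Control cells (0.68 ± 0.10), and Cdc25b, a relative of Cdc25c, in sh-SIRT1 cells (0.59 ± 0.17). Between the lines under RA 27 were lower and 4 higher, beside 11.6% and 8.74% of all genes, with a median of -0.15. Pttg1 (-1.21 ± 0.30) and Hmmr, a spindle protein (-0.82 ± 0.11), were lowest, and Cdc16 of the anaphase-promoting complex (0.57 ± 0.06) and the cohesin subunit Stag1 (0.51 ± 0.12) highest. Pttg1 was already at -1.05 between the lines in vehicle, without passing there. The difference of RA effects passed for 6, all more negative in sh-SIRT1 cells, beside 1.83% of all genes that passed in that direction. Spdl1 (-0.98 ± 0.13) and the kinetochore scaffold Knl1 (-0.94 ± 0.17) led.

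In vehicle 7 of the 93 were higher and 2 lower in sh-SIRT1 cells, beside 4.35% and 4.27% of all genes. Anapc10 of the anaphase-promoting complex (0.79 ± 0.17) and Stag1 (0.74 ± 0.15) were the highest. The lower ones that passed were Cep55, a protein of the midbody (-0.54 ± 0.14), and Esco2 (-0.45 ± 0.13). The lowest value was that of Pttg1 at -1.05, which did not pass. Of the 7 higher genes 3 lie on chromosome 8, which holds 5 of the 93, Anapc10 among them. Of 50 genes of DNA replication and S phase 8 were higher and 0 lower in vehicle, beside the same 4.35% and 4.27% of all genes. Cyclin E2, Ccne2 (1.20 ± 0.22), and Gins4 (0.70 ± 0.09) led, and 3 of the 8 lie on chromosome 8.

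Many replication genes fell under RA in both lines: 30 of 50 fell and 0 rose in sh-Control cells, and 42 fell and 1 rose, Rpa1 (0.65 ± 0.18), in sh-SIRT1 cells. Of all genes 27.0% fell and 19.9% rose in sh-Control cells, and 34.9% fell and 23.5% rose in sh-SIRT1 cells. For the replication genes too, genes of their own level and quantile normalization were not looked at. The largest falls were those of Mcm10 (-0.89 ± 0.09) and Ccne1 (-0.85 ± 0.09) in sh-Control cells, and of Dbf4 (-1.07 ± 0.13) and Rfc5 (-1.03 ± 0.13) in sh-SIRT1 cells. Between the lines under RA 4 replication genes were higher, among them Mcm5 (0.45 ± 0.08) and Orc6 (0.41 ± 0.08), and 2 lower, Orc1 (-0.45 ± 0.09) and Dbf4 (-0.45 ± 0.12), with a median of -0.04, beside 0 higher, 15 lower and a median of -0.25 for the 40 mitosis genes. Of the 4 higher genes 3 lie on chromosome 8, Mcm5 and Orc6 among them, and none of the 40 mitosis genes does. Of all genes 8.74% were higher and 11.6% lower between the lines under RA. Whether the replication and mitosis lists differ was not tested. The difference of RA effects passed for 0 of the 50 (limma), beside 1.83% and 1.72% of all genes that passed as more and less negative.

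Markers of other cells moved with the treatment. Under RA 6 of the 8 primitive endoderm markers rose in sh-Control cells and 7 in sh-SIRT1 cells, with medians of 3.14 and 3.30. Of the 8 pluripotency markers 4 and 6 fell, and 1 rose in each line. The log2 of the summed level of the endoderm markers ran from 0.29 to 0.33 in sh-Control vehicle, from -0.26 to -0.22 in sh-SIRT1 vehicle, from 2.04 to 5.27 in sh-Control RA and from 2.72 to 3.67 in sh-SIRT1 RA, with Gata4 not above background on some array of each group but sh-Control RA. Between the lines under RA 0 of the 8 endoderm markers passed (limma) and 4 of the 8 pluripotency markers were lower in sh-SIRT1 cells. Of 8 fibroblast or feeder markers 6 were tested, with Lum and Postn not among them, and 3 and 4 rose under RA. In vehicle 2 of the 6 were lower and 0 higher in sh-SIRT1 cells. The part of these cells in the levels of the mitosis genes was not tested.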

How the data were processed

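The deposited scanner files hold intensity values of 1-colour Agilent arrays, which the authors made with Agilent Feature Extraction 9.5, per the submitters' processing notes. The series matrix holds the same values. Control spots and outlier spots were left out, log2 of the processed intensity minus each array's 75th percentile was taken, and a probe was kept if every array of some group had it well above background (26389 of 41174 probes). The probe with the highest mean stood for its gene. Names came from the RefSeq gene table by accession where possible and otherwise from the files.

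The 16 arrays were fitted with limma 3.58.1 in R 4.3.3 (lmFit, eBayes, 4 group means), two-sided, with Benjamini-Hochberg adjustment over all 17662 genes and a threshold of 0.05. The fit was also run on simulated data in which all arrays varied independently. That run does not cover arrays as close together as some of these. The number of arrays limits the precision. All printed p-values come from this fit without pairing unless a block is named. Deviations of same-numbered arrays correlated at 0.37 to 0.54 within a treatment and at -0.21 to 0.22 across treatments. Correlations between arrays of different numbers in the 2 lines were not computed. An alternative fit took the number as a replicate block within treatment. Named genes were the members past the threshold, the largest difference in each role, and the 2 largest risers and fallers of the other lists, with the leading protein of each role. The members, lists and tests were chosen with earlier results of these data known. Alternatives covered background correction, scaling, filters, probes, slide, pairing, the arrays included and each array left out.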

Additional observations from a re-analysis of the deposited data

Results flagged for a closer look

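In groups of 4 to 10 arrays, a single array of a gene was flagged where its gap to the next was wide against the range of the group. Of 82 such groups 5 were flagged, where chance flags about 1 in 20. Cenpa was at 2.04 on sh-Control RA array 1, with the other 3 arrays between 1.57 and 1.61. Anln was at -0.11 on the same array, with the others between 0.12 and 0.15. Kif23 was at 1.73 on sh-Control RA array 2, with the others between 1.54 and 1.56. Kif2c was at 1.34 on sh-SIRT1 RA array 1, with the others between 1.07 and 1.14. Cdc20 was at 6.21 on sh-SIRT1 RA array 5, with the others between 6.37 and 6.46.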

How the results depend on the processing

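Of the single calls, 235 of 315 combinations of gene and alternative kept theirs for RA in sh-Control cells, 582 of 660 for RA in sh-SIRT1 cells, and 237 of 375 between the lines under RA, while 78, 73 and 137 lost the threshold and 2, 5 and 1 changed sign. For these the cause was not tested. The sign changed under quantile normalization for Cenpe in sh-Control cells (0.0123) and for Plk1 (0.0363), Aurka (0.0807), Cdc20 (0.14), Cdca8 (0.0062) and Kif20a (0.0224) in sh-SIRT1 cells, under the mean of all probes for Nusap1 in sh-Control cells (0.0215), and with RA arrays 1 and 2 only for Cdc25c between the lines under RA (0.0364). Arrays 1 and 2 only, 3 and above only, and close arrays averaged were chosen after seeing the data.

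In vehicle 1 gene passed with the replicate block within treatment, and 0 to 1 on leaving out an array. For RA in sh-Control cells 6 passed under quantile normalization, 6 in a fit of only the groups compared and 2 with close arrays averaged. The median was 0.0077 under quantile normalization, -0.29 with median centring, -0.31 with sh-Control RA array 1 alone and -0.0734 with RA arrays 3 and above. For RA in sh-SIRT1 cells 17 passed under quantile normalization, 18 with RA arrays 1 and 2 only and 6 with close arrays averaged, with medians of -0.0712 under quantile normalization, -0.49 with centring and -0.26 with RA arrays 1 and 2.

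Between the lines under RA 2 passed with normexp, 7 with slide as a fixed block and 5 with the number as a replicate block over both treatments. In a fit of only the groups compared 9 passed, with RA arrays 3 and above 31, and with RA arrays 1 and 2 only 0. In the same order these fits called 626, 1613, 1481, 1700, 3484 and 77 of all 17662 genes lower. With close arrays averaged 0 passed, but that fit passed 1 of 17662 genes, so its count says nothing about these genes. Leaving out an array gave 7 to 23. The median was -0.13 with sh-Control RA array 1 alone, -0.0347 with RA arrays 1 and 2 and -0.35 with arrays 3 and above. For the difference of RA effects 2 passed with the strict filter, 2 with the replicate block within treatment, 22 with RA arrays 3 and above and 0 to 8 on leaving out an array, with medians of -0.0402 (arrays 1 and 2) and -0.33 (arrays 3 and above). As more negative, the strict filter passed 380 of the 15241 genes it kept. The block within treatment passed 775 of 17662 and arrays 3 and above 2290. With the number as a replicate block over both treatments, 11 genes fell and 0 rose under RA in sh-Control cells and 25 fell and 1 rose in sh-SIRT1 cells. The block within treatment gives no RA comparison.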
